A study of Mus musculus with 9 samples.

Results

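The genes described here encode the proteins of the large (60S) subunit of the cytosolic ribosome. They were selected by symbol alone, as every row named Rpl or Rplp followed by a number with at most the endings a, l, al or l1, which gave 52 of the 23997 gene symbols. This rule reads symbols and no measured values, although the family itself was picked with earlier results of these data known, and it leaves out pseudogene rows and the mitochondrial ribosome (Mrpl genes). Of the 52 genes, 49 were above 0 FPKM in every library and were tested, and the remaining 3 (Rpl3l, Rpl10l and Rpl39l) were listed at 0 in all 9 libraries. The unit FPKM counts sequenced fragments relative to both transcript length and library size.

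Retinal ganglion cells (RGCs), the neurons whose axons form the optic nerve, were immunopanned with an antibody against Thy1.2 from retinas of C57BL/6J mice of both sexes. Eyes were injected at 6 weeks of age and collected 2 weeks later, at 8 weeks. Control eyes received saline, and the eyes of the Mild IOP and Moderate IOP groups received microbeads and were divided by how far their intraocular pressure (IOP) had risen. RNA from the retinas of a group was pooled and split into 3 libraries, so each group was 1 pool with 3 technical replicates, and every p-value below measures the spread between libraries and not between animals.

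A ribosome is built from rRNA and proteins in the nucleolus, and the large subunit carries the site where amino acids are joined, the tunnel through which the new chain leaves and the stalk that recruits elongation factors. Neurons use ribosomes in the cell body, in dendrites and in axons. The mRNAs of ribosomal proteins are short and abundant, and most begin with a run of pyrimidines, the 5′ terminal oligopyrimidine (TOP) sequence, through which mTOR signaling adjusts their translation.

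The stretch around the annotated start of the first exon is shown for some members that recur in the results. Most of those shown hold a run of C and T, unlike most members with a start sequence (counts below). The unbroken run is in capitals where at least 8 of its bases lie between 10 bases before and 15 after the start. Each window covers 15 bases before and 15 after the start in RefSeq, build GRCm38.p6, on the strand of the gene.
Rplp2, chr7:141447636-141447665, plus strand: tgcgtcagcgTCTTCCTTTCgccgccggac
Rpl34, chr3:130730323-130730352, minus strand: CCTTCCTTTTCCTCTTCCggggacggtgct
Rpl35a, chr16:33056467-33056496, plus strand: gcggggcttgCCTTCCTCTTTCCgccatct
Rpl27a, chr7:109519180-109519209, plus strand: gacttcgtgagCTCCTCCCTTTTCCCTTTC
Rpl35, chr2:39005117-39005146, minus strand: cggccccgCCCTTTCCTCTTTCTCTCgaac
Rpl15, chr14:18270972-18271001, minus strand: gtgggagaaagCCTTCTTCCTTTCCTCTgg
Rpl38, chr11:114668565-114668594, plus strand: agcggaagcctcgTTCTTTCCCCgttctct
Rpl22l1, chr3:28805493-28805522, plus strand: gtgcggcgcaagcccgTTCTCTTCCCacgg
Rpl22, chr4:152324421-152324450, plus strand: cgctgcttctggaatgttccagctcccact
Rpl7l1, chr17:46782642-46782671, minus strand: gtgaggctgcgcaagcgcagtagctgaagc

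RefSeq start sequences were at hand for 40 of the 52 genes, in 47 entries. Where a gene has several entries, the one with the longest run is shown above and counted, for members and for all symbols alike. The other Rpl34 entry, at the end of the locus as listed in the files, has a longest run of 6 bases, and the other Rpl35a entries, of which 1 is at the listed start, have runs of 4 and 5. A run of at least 8 C or T between 10 bases before and 15 bases after the start was found in 15 of these 40 genes (37.5%), against 11.05% of all 27025 symbols with an entry. For runs of at least 10 the counts were 14 of 40 (35.0%) and 4.68%. Rpl22 and Rpl7l1, which lay at the bottom of the expression range of the tested members, held no such run in this window. Neither did Rpl41, the most abundant member in Control, or Rpl9, whose longest runs were 3 and 4 bases. The annotated start need not be the base where transcription begins in RGCs.

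The next 3 stretches, from 150 bases before to 15 after the start, are of Rpl41, Rpl38 and Rpl35, ranked 1, 2 and 8 in Control. Each CCGGAAG on either strand, the core bound by ETS factors such as GABP, is in capitals. They were picked as examples and all hold this motif, unlike most members (counts below).
Rpl41, chr10:128549154-128549318, minus strand: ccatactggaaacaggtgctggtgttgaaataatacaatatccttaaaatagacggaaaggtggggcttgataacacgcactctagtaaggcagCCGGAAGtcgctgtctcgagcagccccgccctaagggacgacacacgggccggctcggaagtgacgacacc
Rpl38, chr11:114668430-114668594, plus strand: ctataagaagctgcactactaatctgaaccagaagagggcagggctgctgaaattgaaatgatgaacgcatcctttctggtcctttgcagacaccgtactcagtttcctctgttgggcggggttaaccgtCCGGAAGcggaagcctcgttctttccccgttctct
Rpl35, chr2:39005117-39005281, minus strand: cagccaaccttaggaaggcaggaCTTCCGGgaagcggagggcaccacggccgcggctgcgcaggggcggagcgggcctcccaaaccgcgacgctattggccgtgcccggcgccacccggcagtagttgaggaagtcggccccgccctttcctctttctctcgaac

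Over 250 bases before and 50 after the start, CCGGAAG was present on either strand in 15 of 40 members (37.5%) and in 9.93% of all symbols. AAGATGGC, a core of YY1 sites, was present in 4 of 40 members and in 3.19% of all symbols. GGGCGG, the core of SP1 sites, was present in 27 members (67.5%) and in 38.2% of all symbols, and TATAAA in 5 members (12.5%) and in 15.7%. These are matches of letters, and binding was not measured. The 15 tested members with a run of at least 8 C or T had a median log2 fold-change of Moderate IOP over Mild IOP of 0.96, and 14 of them were called. The 22 tested members with an entry and no such run had a median of 0.80, and 15 were called, so both sets moved in the same direction. Among all tested genes, 7.02% were called higher. With the trend of expression with transcript length removed, the medians were 0.33 with a run and 0.27 without.

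The libraries held 4790000 to 8610000 fragments each, derived from the confidence intervals of the FPKM values. A tested member rested on a median of 507 derived fragments per library, and 43 of the 49 had at least 100 in every library. The thinnest value, Rpl26 in Mild IOP replicate 3, rested on about 7 fragments. Values below are FPKM after scaling by median-of-ratios factors of 0.966 to 1.04. Markers of RGCs, 14 genes that include Rbpms, Sncg and Thy1, had a sum of 1898 to 2063 FPKM in the Control libraries, 1435 to 1773 FPKM in those of Mild IOP and 2880.0 to 3139 FPKM in those of Moderate IOP. The means of 9 of the 14 genes had the order Mild IOP, Control, Moderate IOP from low to high, whereas Nefl, Slc17a6 and Ebf3 were higher in Mild IOP than in Control, and Pou4f2 and Pou4f3 were lower in Moderate IOP than in Control. Sncg alone had means of 928, 653 and 1414 FPKM in Control, Mild IOP and Moderate IOP, and the sum of the other 13 markers overlapped between Control (988 to 1115 FPKM) and Mild IOP (919 to 1044 FPKM) and was 1498 to 1688 FPKM in Moderate IOP. Markers of the lens, 6 genes, summed to 221 to 287 FPKM in Control and to between 0.451 and 1.68 in the IOP groups. Amacrine markers summed to 1394 to 1447 FPKM for Control, 1450.2 to 1636 for Mild IOP and 992 to 1158 for Moderate IOP, and rod markers to 628 to 737 for Control, 466 to 491 for Mild IOP and 449 to 515 for Moderate IOP. Müller glia markers summed to 601 to 668 FPKM over all libraries. Most of this sum was Dkk3, with means of 494, 518 and 430 FPKM in Control, Mild IOP and Moderate IOP. In the same order, Glul had 30.5, 23.7 and 47.6 FPKM, Rlbp1 4.55, 12.6 and 14.8, and Apoe 79.7, 82.7 and 128.9. Aqp4 and Slc1a3 stayed at or below 3.00 FPKM. Bipolar markers summed to 54.1 to 101 FPKM, and the cone, astrocyte, microglia and endothelium lists to at most 34 each. The sum of all RGC markers had the same order of groups as the ribosomal genes below, which between Control and Mild IOP depended on Sncg, and its part in the result was not tested.

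Large subunit mRNAs made up 1.84% to 1.93% of all FPKM in the Control libraries. They made up 1.43%, 0.972% and 1.54% in the 3 Mild IOP libraries and 2.14%, 2.14% and 1.88% in the 3 Moderate IOP libraries. The share depends on the most abundant other gene, which took 20.5% of all FPKM in Mild IOP replicate 2 and 9.14% in Moderate IOP replicate 3. With the most abundant gene of each library left out, the share was 1.91% to 2.00% for Control, 1.22% to 1.59% for Mild IOP and 2.06% to 2.20% for Moderate IOP. On this measure the 3 groups did not overlap, with Mild IOP lowest and Moderate IOP highest. In a pool of cells, a change in the mix of cell types and a change in these mRNAs per cell cannot be told apart.

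Summed over the 52 genes, the scaled level was 10634 ± 431 FPKM for Control (SD, n = 3 libraries), 6898 ± 1292 FPKM for Mild IOP and 12786 ± 455 FPKM for Moderate IOP. The 49 tested genes had a median level of 188 FPKM for Control, 126 FPKM for Mild IOP and 214 FPKM for Moderate IOP. In 44 of the 49 the group means ran in the order Mild IOP, Control, Moderate IOP from low to high, and in 48 of 49 the lowest mean was that of Mild IOP. Mild IOP replicate 2 held the lowest value of 38 of the 49 genes, so this library stood apart within its group.

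**Figure D1:**
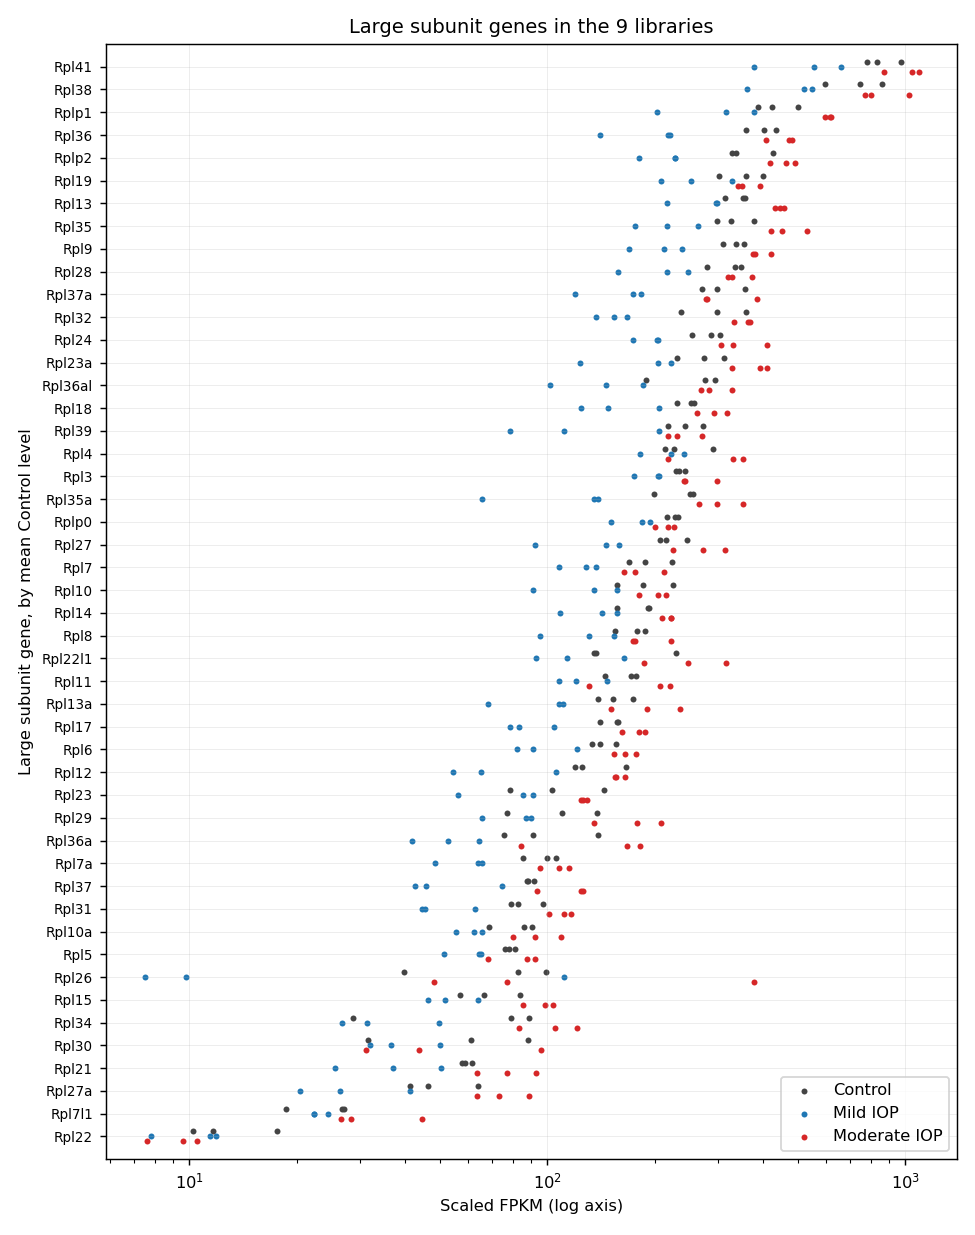
Scaled FPKM (log axis) of 48 of the 49 tested large subunit genes in each of the 9 libraries, 1 point per library, with genes ordered by their mean in Control. Blue points (Mild IOP) lie to the left of the other groups for most genes, Rpl41 and Rpl38 are at the top, and Rpl26 and Rpl30 spread widely within groups.

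The same shift was seen when each gene was set against its own mean over the 9 libraries. The median deviation of the 49 genes was 0.10, 0.16 and 0.09 for the Control libraries on the log2 scale, −0.39, −0.78 and −0.21 for those of Mild IOP, and 0.42, 0.39 and 0.33 for those of Moderate IOP. The Mild IOP libraries differed more among themselves (SD 0.294) than those of Control (SD 0.0377) or Moderate IOP (SD 0.0487). After the trend of expression with transcript length had been removed from every library, the deviations were 0.08, 0.06 and 0.09 for Control, −0.14, −0.23 and −0.12 for Mild IOP, and 0.09, 0.14 and 0.15 for Moderate IOP. Mild IOP remained the lowest group, the distance between Mild IOP and Moderate IOP was smaller, and the lowest Moderate IOP library (0.0912) was close to the highest Control library (0.0904).

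**Figure D2:**
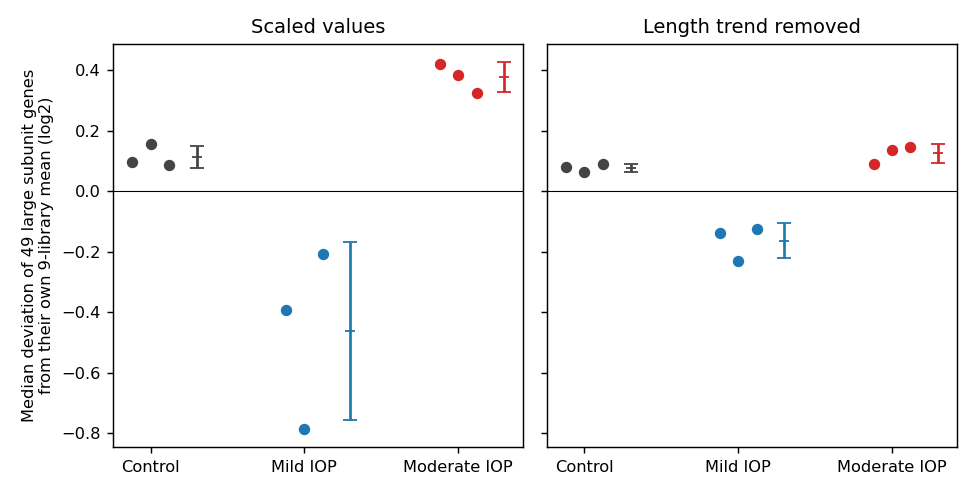
Median deviation (log2) of the 49 tested genes from their own mean over 9 libraries, for each library (points) with the mean and SD of each group (bars, n = 3), before (left) and after (right) removal of the transcript length trend. Mild IOP libraries lie below 0 in both panels, and the spread between groups is narrower on the right.

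When Mild IOP was compared with Control, all 49 tested genes had a negative log2 fold-change, with a median of −0.63 (0.648-fold) beside 0.01 for all 13070 genes tested. At an FDR below 0.1 in limma, with the Benjamini-Hochberg adjustment over all 13070 genes, 6 of the 49 were called lower, beside 0.390% of all tested genes, and 0 were called higher. At an unadjusted p below 0.05, 38 of the 49 were lower, beside 6.99% of all tested genes. In 36 of the 49 the 3 Mild IOP libraries all lay below the 3 Control libraries, beside 9.11% of all tested genes. The call depended on the libraries used, since without Mild IOP replicate 3 the count was 21 and without either Mild IOP replicate 1 or Mild IOP replicate 2 it was 1. It was 0 without Control replicate 1, Control replicate 2 or Moderate IOP replicate 2, 1 without Control replicate 3, 3 without Moderate IOP replicate 1 and 4 without Moderate IOP replicate 3.

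The genes called lower in Mild IOP were Rpl36, Rpl32, Rpl17, Rplp2, Rpl9 and Rpl37a, of which Rpl32, Rpl9 and Rpl37a are named here because of this call. Rpl36 had 434, 358 and 402 FPKM in Control and 220.3, 140.2 and 217 in Mild IOP, a log2 fold-change of −1.07 ± 0.17 (FDR = 0.0447). Rpl32 had 298, 359 and 236 FPKM in Control and 154, 136 and 166 in Mild IOP, a log2 fold-change of −0.95 ± 0.15 (FDR = 0.0447). For both genes every Mild IOP library lay below every Control library. Rpl37a, with 355, 271 and 298 FPKM in Control and 182, 119.6 and 173 in Mild IOP, changed by −0.97 ± 0.19 (FDR = 0.0863) on the log2 scale. Rpl9, with 353, 336 and 308 FPKM in Control and 211, 169 and 238 in Mild IOP, changed by −0.70 ± 0.13 (FDR = 0.0852). Rpl17, which lines the exit tunnel, changed by −0.77 ± 0.13 (FDR = 0.057) and the stalk protein gene Rplp2 by −0.78 ± 0.14 (FDR = 0.0662). No call remained for any of the 6 once the length trend was removed with the median transcript length.

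When Moderate IOP was compared with Control, 44 of the 49 genes had a positive log2 fold-change, with a median of 0.26 (1.20-fold) beside 0.00399 for all tested genes. None of the 49 was called by limma at an FDR below 0.1, beside 0.956% of all tested genes called higher. At an unadjusted p below 0.05, 11 of 49 were higher and 0 lower, beside 8.03% of all tested genes higher. The Moderate IOP libraries all lay above the Control libraries in 15 of 49 genes, beside 9.94% of all tested genes. Without Mild IOP replicate 2, which enters only the estimate of the spread, 2 genes were called. With the length trend removed, the median was 0.05, with 28 genes above and 21 below 0.

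Moderate IOP and Mild IOP differed most. Of the 49 log2 fold-changes, 48 were positive, with a median of 0.94 (1.91-fold) beside −0.02 for all tested genes. Of the 49, 40 were called higher at an FDR below 0.1 and 0 lower, beside 7.02% of all tested genes called higher. The fold-change was at least 1.5 in 38 of the 40. Outside the length corrections described below, 27 of the 40 were called under every alternative run, and 13 lost the call under at least 1 (Rpl3, Rpl7, Rpl8, Rpl10, Rpl10a, Rpl13, Rpl14, Rpl22l1, Rpl23, Rpl28, Rpl34, Rpl38 and Rpl39). The libraries of the groups did not overlap in 44 of 49 genes, beside 14.5% of all tested genes. Both comparisons with Control use the same Control libraries, and the comparison of Moderate IOP with Mild IOP is the direct test of whether the changes from Control differed. Leaving out any of the 9 libraries left 32 to 41 genes called.

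**Figure D3:**
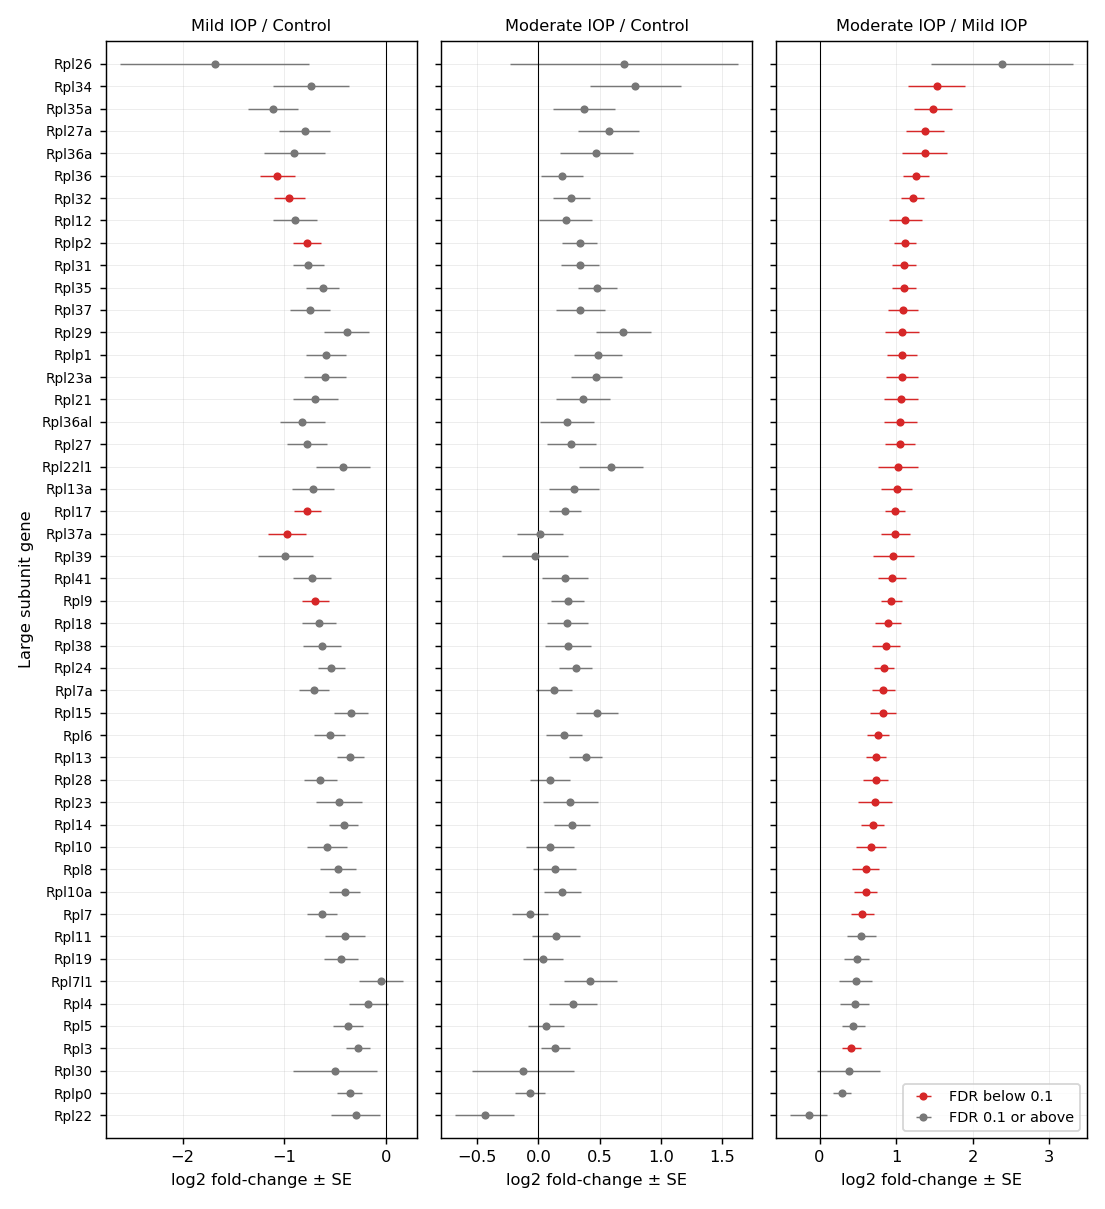
Log2 fold-change with its standard error for 48 of the 49 tested large subunit genes in the 3 comparisons, ordered by the change of Moderate IOP over Mild IOP, with genes at an FDR below 0.1 in red. Red points number 6 on the left, 0 in the middle and 39 on the right.

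Large subunit mRNAs are short, with a median annotated transcript length of 833 nt among the 49 tested genes and 2800 nt among the 12457 tested genes with a length, and the change of all genes depended on length. Among other genes under 600 nt, the median log2 fold-change of Moderate IOP over Mild IOP was 0.69 (253 genes). It was 0.59 at 600 to below 1000 nt (758 genes), 0.21 at 1000 to below 2000 nt (2819 genes), −0.08 at 2000 to below 4000 nt (5090 genes) and −0.16 at 4000 nt or more (3488 genes). The large subunit genes lay above these values in each class that held any. Their medians were 1.08 under 600 nt (13 genes), 0.87 at 600 to below 1000 nt (18 genes), 0.76 at 1000 to below 2000 nt (15 genes) and 0.44 at 2000 to below 4000 nt (3 genes). Of other genes under 600 nt, 33.2% were called higher, against 12 of the 13 large subunit genes.

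Between Mild IOP and Control the medians of other genes rose with length, from −0.46 under 600 nt to 0.10 at 4000 nt or more. Those of the large subunit genes were −0.82 under 600 nt, −0.60 at 600 to below 1000 nt, −0.63 at 1000 to below 2000 nt and −0.30 at 2000 to below 4000 nt. Within the 49 members, the log2 fold-change of Moderate IOP over Mild IOP correlated with the logarithm of transcript length (Pearson's r = −0.54, Spearman's rho = −0.52), a description across genes that share the same 6 libraries. Over all 12457 genes the values were −0.38 and −0.39. The change did not follow the level of the gene as closely, with r = 0.17 and rho = 0.09 against the logarithm of the mean over the 49 genes.

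**Figure D4:**
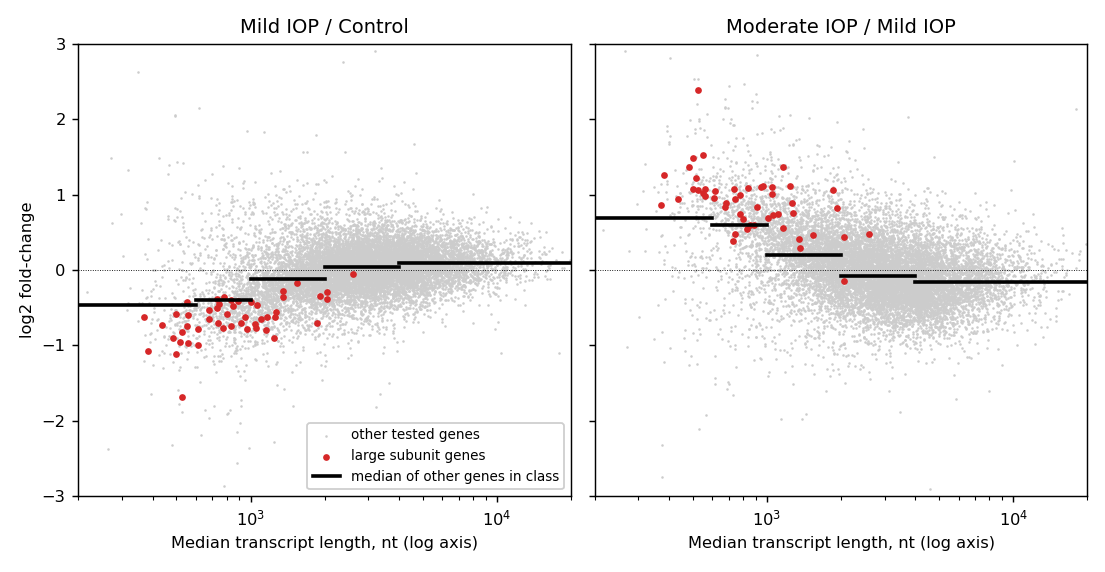
Log2 fold-change against median transcript length (log axis) for the large subunit genes (red) and other tested genes (grey), for Mild IOP over Control and Moderate IOP over Mild IOP, with the median of the other genes in each of 5 length classes as a black line. Axes end at 200 and 20000 nt and at 3 on the log2 scale in either direction, which leaves 30 genes outside by length and 11 by log2 fold-change in each panel. Red points lie below the line on the left and above it on the right for most genes.

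Removal of a smooth trend with length from every library lowered the median of Moderate IOP over Mild IOP to 0.30, with 44 of 49 genes still above 0. Of the 40 genes, 9 remained called, beside 2.00% of the 12457 genes with a length called higher. The count depended on which length was used. With the shortest principal transcript of each gene, 7 were called higher, beside 2.57% of 11936 genes, and Rpl22 was called lower. With the coding length, 24 were called higher, beside 2.67% of these genes. Several members have annotated models that run beyond the other principal transcripts of the gene, such as Rpl31 with 1049 and 487 nt and Rplp2 with 964 and 421 nt.

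The genes called higher under each of the 3 length measures include Rpl12, Rpl27a, Rpl35 and Rpl6, and they are named for that reason after their values were seen. Rpl27a lies at chr7:109519195-109522369 (mm10) and had Control values of 46.4, 41.4 and 64.0, Mild IOP values of 26.3, 20.4 and 41.3 and Moderate IOP values of 88.8, 73.1 and 63.6 FPKM. Its log2 fold-change over Mild IOP was 1.37 ± 0.25 (FDR = 0.0124), and 0.99 ± 0.22 with the median transcript length trend removed. Every Moderate IOP library lay above every Mild IOP library. Rpl35, which sits beside the tunnel exit, had Control values of 298, 327 and 378, Mild IOP values of 216, 176 and 264 and Moderate IOP values of 451, 421 and 529 FPKM. It changed by 1.11 ± 0.16 (FDR = 0.00616), and by 0.61 ± 0.12 after removal. Its 3 groups did not overlap. Rpl6 had Control values of 140.3, 155 and 133, Mild IOP values of 91.0, 82.1 and 121 and Moderate IOP values of 153, 177 and 165 FPKM, with 0.76 ± 0.15 (FDR = 0.0165) before and 0.44 ± 0.11 after removal. For Rpl6 the Moderate IOP libraries overlapped with Control and not with Mild IOP.

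The 4 most abundant members in Control were Rpl41, Rpl38, Rplp1 and Rpl36. Rpl41, at chr10:128548110-128549168 (mm10), encodes a very short and strongly basic peptide that contacts the small subunit, from a coding sequence of 75 nt, shown here without its stop codon because it is the shortest of the family.
Rpl41: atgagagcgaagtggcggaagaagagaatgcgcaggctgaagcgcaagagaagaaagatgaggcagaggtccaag
Rpl41 had Control values of 834, 968 and 779, Mild IOP values of 554, 378 and 661 and Moderate IOP values of 1044, 1089 and 869.6 FPKM. All Mild IOP libraries lay below the others, and the log2 fold-change of Moderate IOP over Mild IOP was 0.94 ± 0.19 (FDR = 0.0176). With the length trend removed, its log2 fold-change was 0.05 ± 0.10 for the median transcript length and −0.14 ± 0.12 for the coding length.

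Rpl38, known in the mouse embryo for its part in translating Hox mRNAs, lies at chr11:114668543-114672331 (mm10). It had Control values of 597, 745 and 862, Mild IOP values of 546, 362 and 522 and Moderate IOP values of 1023, 769.9 and 801 FPKM. Moderate IOP exceeded Mild IOP by 0.87 ± 0.19 (FDR = 0.0243), and Moderate IOP and Control overlapped. With the length trend removed, the direction depended on the length used, at −0.11 ± 0.11 for the median transcript length, −0.10 ± 0.12 for the shortest principal transcript and 0.16 ± 0.12 for the coding length. Rpl36, at chr17:56613395-56614246 (mm10), had 482, 472 and 409 FPKM in Moderate IOP beside the Control and Mild IOP values given above. Its log2 fold-change over Mild IOP was 1.26 ± 0.17 (FDR = 0.00517), and 0.30 ± 0.12 with the trend removed.

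The acidic stalk recruits the elongation factors to the ribosome. Rplp0 anchors it to the rRNA, Rplp1 and Rplp2 form the flexible dimers, and Rpl12 sits at its base. Rplp0 had Control values of 231, 227 and 216, Mild IOP values of 184, 150.4 and 194 and Moderate IOP values of 217, 200.2 and 226 FPKM, and Moderate IOP over Mild IOP was 0.29 ± 0.12 (FDR = 0.188), which did not pass. Rplp1 had Control values of 388, 501 and 424, Mild IOP values of 316, 203 and 377 and Moderate IOP values of 616, 594 and 620.3 FPKM, so the 3 groups did not overlap. The log2 fold-change of Rplp1 was 1.08 ± 0.19 (FDR = 0.0124). Rplp2 had Control values of 337, 328 and 427, Mild IOP values of 227, 179.7 and 228 and Moderate IOP values of 418, 491 and 465 FPKM. It rose by 1.12 ± 0.14 (FDR = 0.00396) over Mild IOP. Rpl12 had Control values of 119, 166 and 125, Mild IOP values of 65.2, 54.4 and 106 and Moderate IOP values of 155, 154 and 165 FPKM and rose by 1.12 ± 0.22 (FDR = 0.016). Before any length correction, the anchor Rplp0 (1358 nt) was at the low end of the whole family. Rplp1 (499 nt), Rplp2 (964 nt) and Rpl12 (1242 nt) were above its median. With the trend of median transcript length removed, the changes were 0.003 for Rplp0, 0.24 for Rplp1, 0.63 for Rplp2 and 0.78 for Rpl12. The family median was then 0.30. With the shortest principal transcript (421 nt), Rplp2 changed by 0.24 (FDR = 0.387). The differences between these genes were not tested.

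Rpl5 and Rpl11 bring the 5S rRNA into the large subunit, and outside the ribosome they bind Mdm2 when assembly fails. Rpl5 had Control values of 77.9, 81.1 and 76.0, Mild IOP values of 65.2, 51.3 and 64.5 and Moderate IOP values of 87.5, 92.1 and 68.2 FPKM and Rpl11 had Control values of 145, 171 and 177, Mild IOP values of 120.0, 108 and 146 and Moderate IOP values of 206, 219.5 and 131 FPKM. Neither passed the test in any comparison. Moderate IOP over Mild IOP was 0.44 ± 0.15 (FDR = 0.108) for Rpl5 and 0.55 ± 0.19 (FDR = 0.131) for Rpl11. Mild IOP lay below Control in every library for Rpl5, whereas the groups overlapped for Rpl11.

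Rpl4 and Rpl17 reach into the exit tunnel and narrow it, and Rpl39 lines its wider end. Rpl4 had Control values of 226, 290.4 and 214, Mild IOP values of 222, 182 and 240.5 and Moderate IOP values of 353, 329 and 218 FPKM. Its values overlapped between all groups, and Moderate IOP over Mild IOP was 0.46 ± 0.19 (FDR = 0.197). Rpl17 had Control values of 141, 157 and 157, Mild IOP values of 78.8, 83.1 and 104 and Moderate IOP values of 181, 162 and 187 FPKM, with no overlap between the 3 groups, and rose by 0.99 ± 0.13 (FDR = 0.00499). Rpl39 had Control values of 217, 271 and 242, Mild IOP values of 78.9, 111 and 204 and Moderate IOP values of 230.0, 216 and 269.9 FPKM. The Mild IOP libraries of Rpl39 lay below the rest but were spread from 78.9 to 204 FPKM, and Moderate IOP over Mild IOP was 0.96 ± 0.27 (FDR = 0.0629).

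Around the mouth of the tunnel, Rpl19, Rpl23a, Rpl26, Rpl31 and Rpl35 form the surface where chaperones, the signal recognition particle and the translocon dock. Rpl23a had Control values of 230.0, 311 and 274, Mild IOP values of 221, 123 and 204 and Moderate IOP values of 391, 327 and 409.9 FPKM and rose by 1.07 ± 0.21 (FDR = 0.016) over Mild IOP. Rpl31 had Control values of 79.2, 97.4 and 83.0, Mild IOP values of 44.5, 45.4 and 62.9 and Moderate IOP values of 112, 101 and 116 FPKM and rose by 1.11 ± 0.15 (FDR = 0.0058). In both genes the 3 groups were separate. Rpl19 had Control values of 358, 401 and 302, Mild IOP values of 251, 207 and 328 and Moderate IOP values of 393, 350.0 and 341 FPKM, with Mild IOP replicate 3 inside the Control range. Moderate IOP over Mild IOP was 0.48 ± 0.17 (FDR = 0.119) for Rpl19, which did not pass.

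Rpl26, at chr11:68901566-68904534 (mm10), was the least reproducible member. It had Control values of 98.8, 82.7 and 39.9, Mild IOP values of 7.5, 111 and 9.79 and Moderate IOP values of 379, 77.3 and 48.2 FPKM. Mild IOP replicate 2 was above every Control library while Mild IOP replicates 1 and 3 were the lowest values of the gene, and Moderate IOP replicate 1 stood far above all others. The log2 fold-change of Moderate IOP over Mild IOP, the highest of the family at 2.38 ± 0.93 (FDR = 0.166), therefore did not pass. Without Mild IOP replicate 2 it was 3.57 and past the threshold, and without Moderate IOP replicate 1 it was 1.51.

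Rpl3, Rpl8 and Rpl10 surround the catalytic centre, and Rpl10 joins the subunit late, in the cytoplasm. Rpl3 had Control values of 243, 234 and 229, Mild IOP values of 203, 175 and 205 and Moderate IOP values of 240.1, 298 and 243 FPKM. Rpl8 had Control values of 187, 178 and 154, Mild IOP values of 130.3, 95.3 and 153 and Moderate IOP values of 176, 221 and 173 FPKM and Rpl10 had Control values of 185, 224 and 156, Mild IOP values of 135, 90.9 and 157 and Moderate IOP values of 215, 180.5 and 204 FPKM. All 3 genes passed the test of Moderate IOP over Mild IOP with modest changes. The log2 fold-change was 0.42 ± 0.12 (FDR = 0.0698) for Rpl3, 0.60 ± 0.17 (FDR = 0.0714) for Rpl8 and 0.67 ± 0.20 (FDR = 0.0731) for Rpl10. These calls depended on the settings. Of 26 alternatives, the call was lost in 10 for Rpl3, whose change turned to −0.03 under quantile normalization, and in 15 each for Rpl8 and Rpl10.

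Besides Rpl41 and Rpl19, Rpl24 forms a bridge to the small subunit. It had Control values of 253, 303 and 286, Mild IOP values of 203, 174 and 203 and Moderate IOP values of 411, 329.6 and 306 FPKM. Mild IOP lay below Control and Control below Moderate IOP without overlap, and Moderate IOP over Mild IOP was 0.84 ± 0.14 (FDR = 0.00901).

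Among the members are 6 pairs of close relatives, and most partners differed widely in level. Rpl3l, typical of heart and skeletal muscle, and Rpl10l and Rpl39l, typical of the testis, were listed at 0 FPKM in all 9 libraries while Rpl3, Rpl10 and Rpl39 were between 78.9 and 298 FPKM. The coding sequences of Rpl39, on the X chromosome, and Rpl39l, on chromosome 16, are printed to show where they can be told apart, with the bases that differ in capitals.
Rpl39: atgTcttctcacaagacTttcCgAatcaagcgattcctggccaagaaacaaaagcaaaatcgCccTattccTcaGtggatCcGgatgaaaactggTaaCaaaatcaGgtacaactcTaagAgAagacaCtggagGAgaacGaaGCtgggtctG
Rpl39l: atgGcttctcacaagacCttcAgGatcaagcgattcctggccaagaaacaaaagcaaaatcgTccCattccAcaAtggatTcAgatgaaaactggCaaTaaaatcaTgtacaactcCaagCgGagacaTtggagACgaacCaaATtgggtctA
They differ at 23 of 153 positions (85.0% identity), and their longest identical stretch is 38 nt. Identity was 84.7% for Rpl10 and Rpl10l, 73.2% for Rpl3 and Rpl3l and 54.0% for Rpl7 and Rpl7l1 over the aligned columns.

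Rpl22 and Rpl22l1, which are 68.2% identical in coding sequence, differed widely in level. Rpl22, at chr4:152324436-152334082 (mm10), had Control values of 17.6, 10.2 and 11.6, Mild IOP values of 11.9, 7.82 and 11.5 and Moderate IOP values of 7.64, 9.59 and 10.5 FPKM and was the lowest of the tested members in Control. Rpl22l1, at chr3:28805511-28807415 (mm10), had Control values of 137, 134 and 228, Mild IOP values of 93.2, 113 and 163 and Moderate IOP values of 186, 316 and 248 FPKM. Rpl22 was the only tested member with a negative log2 fold-change of Moderate IOP over Mild IOP, at −0.14 ± 0.24 (FDR = 0.781), while Rpl22l1 rose by 1.02 ± 0.26 (FDR = 0.0469). The difference between the changes of these genes was not tested. In Mild IOP over Control both values were below 0, at −0.30 ± 0.24 (FDR = 0.749) for Rpl22 and −0.42 ± 0.26 (FDR = 0.644) for Rpl22l1, and neither passed. Against Control, Moderate IOP had a log2 fold-change of −0.44 ± 0.24 (FDR = 0.416) for Rpl22 and 0.60 ± 0.26 (FDR = 0.317) for Rpl22l1. The annotated lengths of Rpl22, 2051 nt for the median transcript and 474 nt for the shortest principal transcript, place it on different parts of the length trend, and with the latter the change was −0.97 ± 0.24.

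Rpl7 had Control values of 187, 223 and 169, Mild IOP values of 128, 108 and 137 and Moderate IOP values of 175, 164 and 211 FPKM, and its relative Rpl7l1, which acts in the nucleolus, had Control values of 26.8, 27.0 and 18.6, Mild IOP values of 24.5, 22.2 and 22.3 and Moderate IOP values of 26.5, 28.3 and 44.8 FPKM. Rpl7 was higher in Moderate IOP than in Mild IOP by 0.56 ± 0.15 (FDR = 0.0524) and differed from Control by −0.07 ± 0.15 (FDR = 0.863). Rpl7l1 did not pass in any comparison. In Mild IOP over Control it had the value nearest to 0 of the family, −0.05 ± 0.21 (FDR = 0.964).

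Rpl36a and Rpl36al are 87.7% identical in coding sequence, with no identical stretch beyond 24 nt. Rpl36a had Control values of 138, 91.0 and 75.6, Mild IOP values of 41.9, 52.9 and 64.3 and Moderate IOP values of 84.6, 166 and 182 FPKM. Rpl36al had Control values of 188, 293 and 276, Mild IOP values of 145, 101 and 185 and Moderate IOP values of 283, 269 and 328 FPKM. Both rose in Moderate IOP over Mild IOP, by 1.37 ± 0.30 (FDR = 0.0245) for Rpl36a and 1.06 ± 0.22 (FDR = 0.0212) for Rpl36al. Rpl36al was the more abundant in every library.

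Rpl34 and Rpl35a showed the next largest differences after Rpl26. Rpl35a, a gene mutated in some families with Diamond-Blackfan anaemia, had Control values of 249, 198 and 256, Mild IOP values of 135, 65.8 and 138 and Moderate IOP values of 265, 297 and 351 FPKM. The 3 groups did not overlap, and Moderate IOP over Mild IOP was 1.49 ± 0.25 (FDR = 0.0102). Rpl34, at chr3:130726827-130730398 (mm10), had Control values of 79.0, 88.6 and 28.6, Mild IOP values of 49.8, 31.3 and 26.7 and Moderate IOP values of 83.5, 105 and 121 FPKM, with a change of 1.53 ± 0.37 (FDR = 0.0381). Its estimate is uncertain, because the processed pseudogene Rpl34-ps1 matches 352 of 354 bases of its transcript and was listed at a higher level in every library. With the pseudogene row added to Rpl34, the log2 fold-change was 0.96.

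Rpl29 and Rpl30 were among the extremes of Moderate IOP against Control, where no member passed the test. Rpl29 had Control values of 137, 109.6 and 77.1, Mild IOP values of 87.2, 65.7 and 90.0 and Moderate IOP values of 208, 178 and 135 FPKM, a log2 fold-change of 0.69 ± 0.22 (FDR = 0.18) over Control and 1.08 ± 0.22 (FDR = 0.0204) over Mild IOP. Rpl30 had Control values of 61.1, 88.5 and 31.6, Mild IOP values of 36.6, 32.0 and 50.04 and Moderate IOP values of 96.0, 31.2 and 43.7 FPKM, which overlapped between all groups. Its change over Control was −0.12 ± 0.41 (FDR = 0.921). The highest change over Control was that of Rpl34, 0.79 ± 0.37 (FDR = 0.344).

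The other 12 tested members (Rpl7a, Rpl10a, Rpl13, Rpl13a, Rpl14, Rpl15, Rpl18, Rpl21, Rpl23, Rpl27, Rpl28 and Rpl37) lay between 25.5 and 457 FPKM in single libraries. All 12 were called higher in Moderate IOP than in Mild IOP, beside 7.02% of all tested genes, with log2 fold-changes between 0.60 and 1.09. Against Control, the Mild IOP values lay between −0.78 and −0.35 and the Moderate IOP values between 0.09 and 0.48, and none of them passed the test in either comparison. With the trend of median transcript length removed, 2 of the 12, Rpl15 and Rpl21, remained called, beside 2.00% of the 12457 genes with a length. These 2 calls depended on the length used. With the shortest principal transcript neither passed, at 0.27 (FDR = 0.383) for Rpl15 and 0.57 (FDR = 0.102) for Rpl21. With the coding length both passed, at 0.56 (FDR = 0.0779) and 0.69 (FDR = 0.0713).

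Other genes of the translation machinery were set beside these values. Of the 33 tested genes of the small (40S) subunit, 30 were called higher in Moderate IOP than in Mild IOP and 0 lower. Among all tested genes, 7.02% were called higher and 3.11% lower. The median log2 fold-change of the small subunit genes was 0.95. Among their most abundant members were Rps29, Fau and Rps13, with log2 fold-changes of 1.04 ± 0.26 (FDR = 0.0400) for Rps29 and 0.82 ± 0.15 (FDR = 0.0141) for Fau. Of the 48 tested genes of the mitochondrial large subunit, which serve the separate ribosome inside mitochondria, 16 were called higher and 0 lower, with a median of 0.55. Its most abundant gene, Mrpl27, changed by 0.70 ± 0.21 (FDR = 0.0778). With the length trend removed, 4 of 33 small subunit genes and 3 of 48 mitochondrial genes were called higher, with a median of 0.26 in both lists. Of the 12457 genes with a length, 2.00% were then called higher.

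Of 51 genes listed as assembly factors of the 60S subunit, 4 were called higher in Moderate IOP than in Mild IOP (Ddx18, Znhit3, Nop16 and Mrto4). Another 3 were called lower (Heatr3, Gnl3l and Noc2l). Among all tested genes 7.02% were called higher and 3.11% lower, so the shares in this list were near the background. The called genes are named after their values were seen. The median log2 fold-change of the list was 0.04, and its median length was 2491 nt. Rrp1 changed by 0.03 ± 0.09 (FDR = 0.874) and Npm1 by 0.21 ± 0.14 (FDR = 0.423), and neither passed. Of 16 genes for elongation factors and other mRNAs with a TOP sequence, 3 were called higher and 0 lower, with a median of 0.37 and a median length of 1876 nt. Eef1a1, which delivers aminoacyl-tRNA to the ribosome, had a change of 0.23 ± 0.10 (FDR = 0.199), whereas Tpt1 rose by 0.78 ± 0.19 (FDR = 0.0351), Naca by 0.65 ± 0.12 (FDR = 0.0158) and Btf3 by 0.80 ± 0.14 (FDR = 0.0103). The difference between these lists and the large subunit genes was not tested.

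In Mild IOP against Control, 2 of the 33 small subunit genes were called lower (Rps25 and Rps7, named for this call), beside 0.390% of all tested genes. For the mitochondrial, assembly and elongation lists, 0 genes were called by limma in either direction. At an unadjusted p below 0.05, 26 of 33 small subunit genes, 21 of 48 mitochondrial genes, 4 of 51 assembly genes and 4 of 16 elongation genes were lower, beside 6.99% of all tested genes. Their medians were −0.66 for the small subunit, −0.44 for the mitochondrial large subunit, −0.11 for the assembly factors and −0.13 for the elongation list. In Moderate IOP against Control, 1 assembly gene, Heatr3, was called lower (beside 0.888% of all tested genes) and no gene of the other lists was called, with medians of 0.29, 0.13, −0.01 and 0.24 in the same order. At an unadjusted p below 0.05, 7 of 33 small subunit genes, 5 of 48 mitochondrial genes, 3 of 51 assembly genes and 3 of 16 elongation genes were higher, beside 8.03% of all tested genes.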

How the data were processed

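RGC libraries of 3 groups (Control, Mild IOP and Moderate IOP, 3 each) were analysed as technical replicates of 1 RNA pool per group, with groups taken from the labels. The authors aligned reads from oligo-dT primed cDNA to mm10 and estimated expression with Cufflinks. For the alignment the methods name bowtie2, whereas the submitters' processing notes list TopHat2. Each deposited file lists FPKM for every locus with confidence bounds, computed by the authors library by library. Loci that share a symbol were added up here. No read counts accompany them, so the fragments behind a value were derived from its bounds as (2 × FPKM / (upper bound − FPKM)) squared, and derived depth came from genes of at least 2000 nt with at least 100 such fragments.

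Scaling used median-of-ratios factors, and values were taken as log2(FPKM + 1). Genes entered the fit when the mean scaled FPKM reached 0.5 and no estimate had failed, which left 13070. The model in limma (version 3.58.1, R 4.3.3) had a mean for each group, used all 9 libraries and let the variance follow expression. P-values were adjusted by Benjamini-Hochberg over all tested genes, and a gene was called at an FDR below 0.1. Fold-changes are on the log2(FPKM + 1) scale, which understates those of low genes. Transcript and coding lengths came from GENCODE M21, and start sequences and symbols from RefSeq (GRCm38.p6). The length trend was a loess curve of span 0.5, fitted in each library. In simulated data with 13070 genes of which 200 were changed, the fit for Moderate IOP against Control recovered 60 of 100 changes of size 1 on the log2 scale and 96 of 100 of size 2, with 13 false calls.

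Genes were named by fixed rules, namely the 4 most abundant members, the 4 highest and 4 lowest changes in each comparison, the paralog pairs and members with a known place in the subunit, and further ones where the text says so. For other lists (small subunit, mitochondrial large subunit, 60S assembly factors, elongation factors and other TOP mRNAs) up to 4 of the most abundant genes were named. The members, lists, markers and tests were chosen with earlier results of these data known. Alternatives changed the scaling, pseudocount, filter, variance model, length correction, threshold and libraries used. The shortest principal transcript and the coding length as length measures were added after seeing the data. The study's own tests were not used. The named values of 1 member and 1 small subunit gene are not reported here, and both stay in the counts and medians.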

Additional observations from a re-analysis of the deposited data

Results flagged for a closer look

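The change from Control differed between Moderate IOP and Mild IOP for 40 of the 49 tested large subunit genes, by the direct comparison of these groups with limma at an FDR below 0.1. All 40 were higher in Moderate IOP, beside 7.02% of all tested genes called higher. With the trend of median transcript length removed, 9 genes were called higher, beside 2.00% of all genes with a length. With the shortest principal transcript, 7 were called higher, beside 2.57% of all such genes, and Rpl22 was called lower. With the coding length, 24 were called higher, beside 2.67%.

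The pseudogene row Rpl34-ps1, which the selection left out, showed signal in Moderate IOP above every Control library. It had Control values of 178, 236 and 213, Mild IOP values of 180.3, 117 and 169 and Moderate IOP values of 268, 271 and 251 FPKM, with a mean of 263.6 FPKM for Moderate IOP. By limma, its log2 fold-change was 0.34 ± 0.17 over Control (FDR = 0.363), which did not pass, and 0.78 ± 0.17 over Mild IOP (FDR = 0.0232), which did. The row matches 352 of 354 bases of an Rpl34 transcript, so the split of reads between them is uncertain. The other pseudogene rows of members (Rpl14-ps1, Rpl31-ps12 and Rplp2-ps1) stayed at or below 17.4 FPKM.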

How the results depend on the processing

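Between Moderate IOP and Mild IOP, the median log2 fold-change of the large subunit genes stayed positive under all alternatives run, and the count of 40 called genes moved by over 1.5 times under the 3 length corrections and under no other alternative run. With the trend of median transcript length removed, 9 genes were called and the median was 0.30. With the shortest principal transcript these values were 8 (7 higher, and Rpl22 lower) and 0.28, and with the coding length 24 and 0.53. Quantile normalization gave a median of 0.58. Leaving out 1 library gave 32 to 41 called genes and medians of 0.77 to 1.06. For Mild IOP against Control, the 6 calls became 1 with quantile normalization, 0 with no filter on low values, 0 with the variance of the compared groups alone, 0 with no variance trend, 10 with array weights, 2 at an FDR below 0.05, and 0, 0 and 3 with the trend of median, shortest principal and coding length removed. The median of −0.63 moved to −0.38 with quantile normalization and to −0.30, −0.25 and −0.42 with the same 3 length corrections. Leaving out 1 library gave 0 to 21 calls and medians of −0.74 to −0.46. For Moderate IOP against Control, 0 genes were called except that 2 were without Mild IOP replicate 2, so the range over left-out libraries was 0 to 2, with medians of 0.20 to 0.28. The median of 0.26 became 0.053, 0.042 and 0.091 with the trend of median, shortest principal and coding length removed. The causes of these differences were not tested.

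For single genes between Moderate IOP and Mild IOP, the direction turned in 13 of 1274 gene and setting combinations. With the median length these were Rpl11 (−0.017), Rpl19 (−0.14), Rpl30 (−0.26) and Rpl38 (−0.11). With the shortest principal transcript they were Rpl10a (−0.0052), Rpl19 (−0.11), Rpl30 (−0.35) and Rpl38 (−0.10), and with the coding length Rpl30 (−0.13) and Rpl41 (−0.14). Under quantile normalization Rpl3 (−0.026) and Rplp0 (−0.092) turned. Rpl30 ranged from −0.071 without Moderate IOP replicate 1 to 0.72 without Moderate IOP replicate 2. Another 153 combinations lost the call and 11 gained it. With the replicate number as a block, 3 genes were called in Mild IOP against Control and 36 in Moderate IOP against Mild IOP. The deviations of same-numbered libraries correlated between −0.00470 and 0.0449 across genes, so the numbers did not pair the libraries. Rpl26 held the thinnest value, about 7 derived fragments in Mild IOP replicate 3 (derived depth 5130000). It had 7.5 in Mild IOP replicate 1 (6570000) and 154.6 in Mild IOP replicate 2 (6380000). The part of depth in this spread was not tested.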
